A study of Mus musculus with 9 samples.

Results

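The genes described here are 40 genes of the cell cycle and of DNA replication, taken by their symbols. They cover the loading and firing of replication origins, DNA synthesis, the cyclins and kinases of the G1 phase, their inhibitors, the entry into mitosis and the separation of chromosomes. Every probe listed under one of these symbols was taken, which gave 70 probes for 35 symbols, of 25697 probes for 18120 symbols on the array. *Aurka*, *Aurkb*, *Cdk4*, *Cdt1* and *Mki67* had no probe under these names. The question was whether proliferation genes differed among the otic vesicle (OV), the hollow epithelial ball that forms the inner ear, and the tissues around it. All samples were tissue of CD-1 mice, an outbred strain, at E10.5, in mid-gestation, and the labels name no mutation, transgene or treatment. The 3 groups were pools of dissected OVs, pools of the periotic tissue next to them, which holds mesenchyme and hindbrain, and whole embryos from which the otic region had been removed (embryo-minus-otic). Each group had 3 arrays of 1 pool each, collected from 3 litters, and nothing in the labels ties a replicate number to a litter. Embryo-minus-otic is therefore a mixture of nearly all other tissues of the embryo, and a value there is an average over them.

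A dividing cell passes through G1, copies its DNA in S phase and separates the copies in mitosis. Mitogens raise the D-type cyclins, which with their kinases phosphorylate the retinoblastoma protein and so release the E2F transcription factors, and these switch on the genes of DNA replication. The genes of mitosis are switched on later, and the inhibitors p21 (*Cdkn1a*), p27 (*Cdkn1b*) and p18 (*Cdkn2c*) hold the kinases back. The OV of this stage is an epithelium of dividing progenitors from which sensory cells, supporting cells and neurons of the inner ear arise. Most messenger RNAs of replication and mitosis rise and fall with the cycle, whereas D-type cyclins and inhibitors are set largely by signals and by tissue.

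Promoters are shown for members that behaved differently across the tissues. *Mcm5* and *Cdc2a* were not called in any comparison, *Top2a* was higher in OV than in embryo-minus-otic, and *Ccnd3* and *Cdkn1a* were called in both OV comparisons. RefSeq promoters on GRCm38.p6, from 250 bases before to 50 bases after the transcription start, were found for 28 of the 35 symbols, with 32 start sites. Capitals mark matches, on either strand, to CCAAT, the element of many mitotic promoters, to TTTGAA, the core of the cell cycle genes homology region, or to 1 of 4 forms of the E2F motif. These read TTTCGCGC in the first form, TTTGGCGC in the second, TTTCCCGC in the third and TTTGCCGC in the last. Overlapping matches run into a single stretch of capitals. *Mcm5* lies at chr8:75109259-75109558 on the plus strand and *Cdc2a*, now named *Cdk1*, at chr10:69352863-69353162 on the minus strand. *Top2a* lies at chr11:99024140-99024439 on the minus strand. The starts of *Cdkn1a* lie at chr17:29090729-29091028 and chr17:29093519-29093818, and those of *Ccnd3* at chr17:47504801-47505100 and chr17:47593217-47593516, all on the plus strand.
*Mcm5*: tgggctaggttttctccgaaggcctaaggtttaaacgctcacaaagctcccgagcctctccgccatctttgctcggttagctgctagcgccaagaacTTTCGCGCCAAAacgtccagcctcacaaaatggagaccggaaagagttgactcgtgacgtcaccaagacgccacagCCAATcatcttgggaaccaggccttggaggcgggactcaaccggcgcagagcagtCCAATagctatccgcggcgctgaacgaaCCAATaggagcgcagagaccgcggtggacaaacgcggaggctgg
*Cdc2a*: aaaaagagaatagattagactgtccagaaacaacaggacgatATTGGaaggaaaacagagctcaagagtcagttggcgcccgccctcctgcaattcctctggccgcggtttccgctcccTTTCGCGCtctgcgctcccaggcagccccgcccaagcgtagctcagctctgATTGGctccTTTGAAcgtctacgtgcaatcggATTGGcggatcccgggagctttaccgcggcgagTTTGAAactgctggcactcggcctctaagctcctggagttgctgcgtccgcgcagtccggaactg
*Top2a*: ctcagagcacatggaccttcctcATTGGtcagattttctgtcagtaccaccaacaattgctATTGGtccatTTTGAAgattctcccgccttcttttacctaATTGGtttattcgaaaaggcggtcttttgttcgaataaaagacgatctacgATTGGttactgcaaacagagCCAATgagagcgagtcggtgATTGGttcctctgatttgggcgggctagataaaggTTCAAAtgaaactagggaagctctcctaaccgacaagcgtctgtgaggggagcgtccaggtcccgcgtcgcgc
*Cdkn1a*, first start: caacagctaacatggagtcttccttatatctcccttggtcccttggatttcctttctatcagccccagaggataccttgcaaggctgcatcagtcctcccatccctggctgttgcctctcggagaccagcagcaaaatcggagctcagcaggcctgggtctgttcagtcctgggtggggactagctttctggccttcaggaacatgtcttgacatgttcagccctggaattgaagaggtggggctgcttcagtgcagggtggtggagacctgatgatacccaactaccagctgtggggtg
*Cdkn1a*, second start: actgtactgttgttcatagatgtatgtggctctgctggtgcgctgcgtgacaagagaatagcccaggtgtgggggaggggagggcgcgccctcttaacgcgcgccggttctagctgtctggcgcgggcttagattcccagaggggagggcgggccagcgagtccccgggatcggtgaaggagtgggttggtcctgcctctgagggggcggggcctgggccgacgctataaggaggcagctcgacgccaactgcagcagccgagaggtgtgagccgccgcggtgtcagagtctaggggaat
*Ccnd3*, first start: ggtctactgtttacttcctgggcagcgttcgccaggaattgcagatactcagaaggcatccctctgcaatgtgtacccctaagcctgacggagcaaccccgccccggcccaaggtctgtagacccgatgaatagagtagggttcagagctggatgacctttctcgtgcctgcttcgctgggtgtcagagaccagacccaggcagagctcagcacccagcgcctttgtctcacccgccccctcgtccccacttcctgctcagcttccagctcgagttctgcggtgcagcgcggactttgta
*Ccnd3*, second start: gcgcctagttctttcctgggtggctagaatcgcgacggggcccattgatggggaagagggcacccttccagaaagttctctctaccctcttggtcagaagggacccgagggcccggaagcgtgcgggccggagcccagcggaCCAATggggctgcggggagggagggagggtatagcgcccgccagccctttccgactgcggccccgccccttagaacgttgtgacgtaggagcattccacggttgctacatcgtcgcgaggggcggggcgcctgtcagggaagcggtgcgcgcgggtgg

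*Mcm5* held 3 CCAAT and 2 E2F matches, the latter overlapping each other. *Cdc2a* held 3 CCAAT, 2 TTTGAA and 1 E2F match, and *Top2a* held 6 CCAAT and 2 TTTGAA matches. Neither start of *Cdkn1a* nor the first start of *Ccnd3* held any of these motifs, and the second start of *Ccnd3* held 1 CCAAT. Among promoters not shown, those of the uncalled *Birc5*, *Tyms* and *Ccne1* and of the called *E2f1* held none. Of the other called members, *Cdc20* held 2 CCAAT and 1 TTTGAA, and *Cdc25b* held 1 CCAAT. No promoter was found for *Ccnd1* or *Ccnd2*. Matches to CCAAT were found in 68.8% of the 32 member promoters and in 37.4% of all 32851 promoters. E2F matches were in 21.9% of the member promoters against 2.26% of all, and TTTGAA in 21.9% against 17.9%. These are counts of letters in fixed windows and not of bound sites.

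Values are log2 intensities after quantile normalization over the 9 arrays, and differences between groups are on the same scale. All probes were fitted with limma in a linear model of the 3 groups. P-values were adjusted over all probes by Benjamini-Hochberg (*q*), with a call at *q* under 0.05. Signal counted as above background where the array's detection p-value was under 0.01, and a probe was called measured where this held on all arrays of at least 1 group. Of the 70 member probes, 58 were measured, for 32 symbols, and 53 were above background on all 9 arrays. The 5 others that were measured are 2 probes each of *Tyms* and *Cdkn1a* and 1 of *Ccnd3*. *Cdk6*, *Ccnb2* and *Bub1*, each with a single probe, were above background on no array. In all, 10 member probes were above background on no array. Between 43.9% and 47.3% of all probes were above background on an array, and between 55 and 58 of the member probes were. Precision is limited by 3 arrays per group, and the SD within groups had a median of 0.12 over the measured member probes.

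Most members were nearly level across the 3 tissues. Counted by probe, the differences that passed the test lay mainly among the D-type cyclins and *Cdkn1a*, most of which have several probes. By gene, 9 of the 32 measured symbols had a call, and these include *Cdc20*, *Top2a*, *Mcm4*, *E2f1* and *Cdc25b*. Against periotic tissue, 7 member probes of 3 genes were higher in OV (*Ccnd1*, *Cdkn1a* and *Cdc20*) and 5 of 4 genes were lower (*Ccnd2*, *Ccnd3*, *E2f1* and *Cdc25b*). These were 20.7% of the 58 measured member probes, beside 20.9% of all 11849 measured probes and 10.2% of all probes, so the share of calls was near the background of the comparison. Of all probes, 5.07% were higher and 5.15% lower in OV, and of measured probes 10.4% and 10.6%. Against embryo-minus-otic, 8 member probes were higher in OV (*Ccnd1*, *Cdkn1a*, *Cdc20* and *Top2a*) and 4 were lower (*Ccnd2*, *Ccnd3* and *Mcm4*). This share was also 20.7% of measured member probes, beside 23.2% of all measured probes and 11.4% of all probes. The split was 5.89% higher and 5.51% lower over all probes, and 12.1% and 11.1% over measured probes. Between periotic tissue and embryo-minus-otic, 2 member probes were higher in periotic tissue (*Ccnd1* and *E2f1*) and 1 was lower (*Cdkn1a*). These were 5.17% of the measured member probes, beside 12.1% of all measured probes and 5.81% of all probes. Here 2.86% of all probes were higher and 2.95% lower in periotic tissue, and 6.08% and 6.05% of measured probes. The comparisons share arrays pairwise, so their counts are not independent. Arrays of the groups compared overlapped for none of the called member probes, and a call nearly always came with this, since 99% to 99.5% of all called probes had no overlap. Among measured probes, called or not, 34.5%, 36.2% and 24.1% of those of members had no overlap in the order of comparisons, beside 39.0%, 38.5% and 28.8% of all. In bulk tissue, fewer cells of a type and less RNA per cell cannot be told apart, and this holds for each difference given here.

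The intensities of the members without a call were bounded closely. For probes near background, the interval bounds the intensity and not the RNA, whose difference may be larger. Against periotic tissue, the 46 measured probes without a call had log2 differences from -0.31 to 0.35, and for 40 of them the 95% interval lay within a 1.5-fold difference in either direction. Against embryo-minus-otic, the 46 probes without a call ranged from -0.44 to 0.23, and 43 had such an interval. Between the non-otic groups, the 55 probes without a call ranged from -0.53 to 0.33, and 50 had such an interval. A 2-fold difference in intensity lay outside the interval of each uncalled probe except 1 of *Ccnd2* between the non-otic groups. The median log2 difference over the measured member probes was -0.06 for OV against periotic tissue, 0.03 for OV against embryo-minus-otic and 0.04 between the non-otic groups. The same medians over all measured probes were -0.0032, 0.01 and 0.02.

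**Figure D1:**
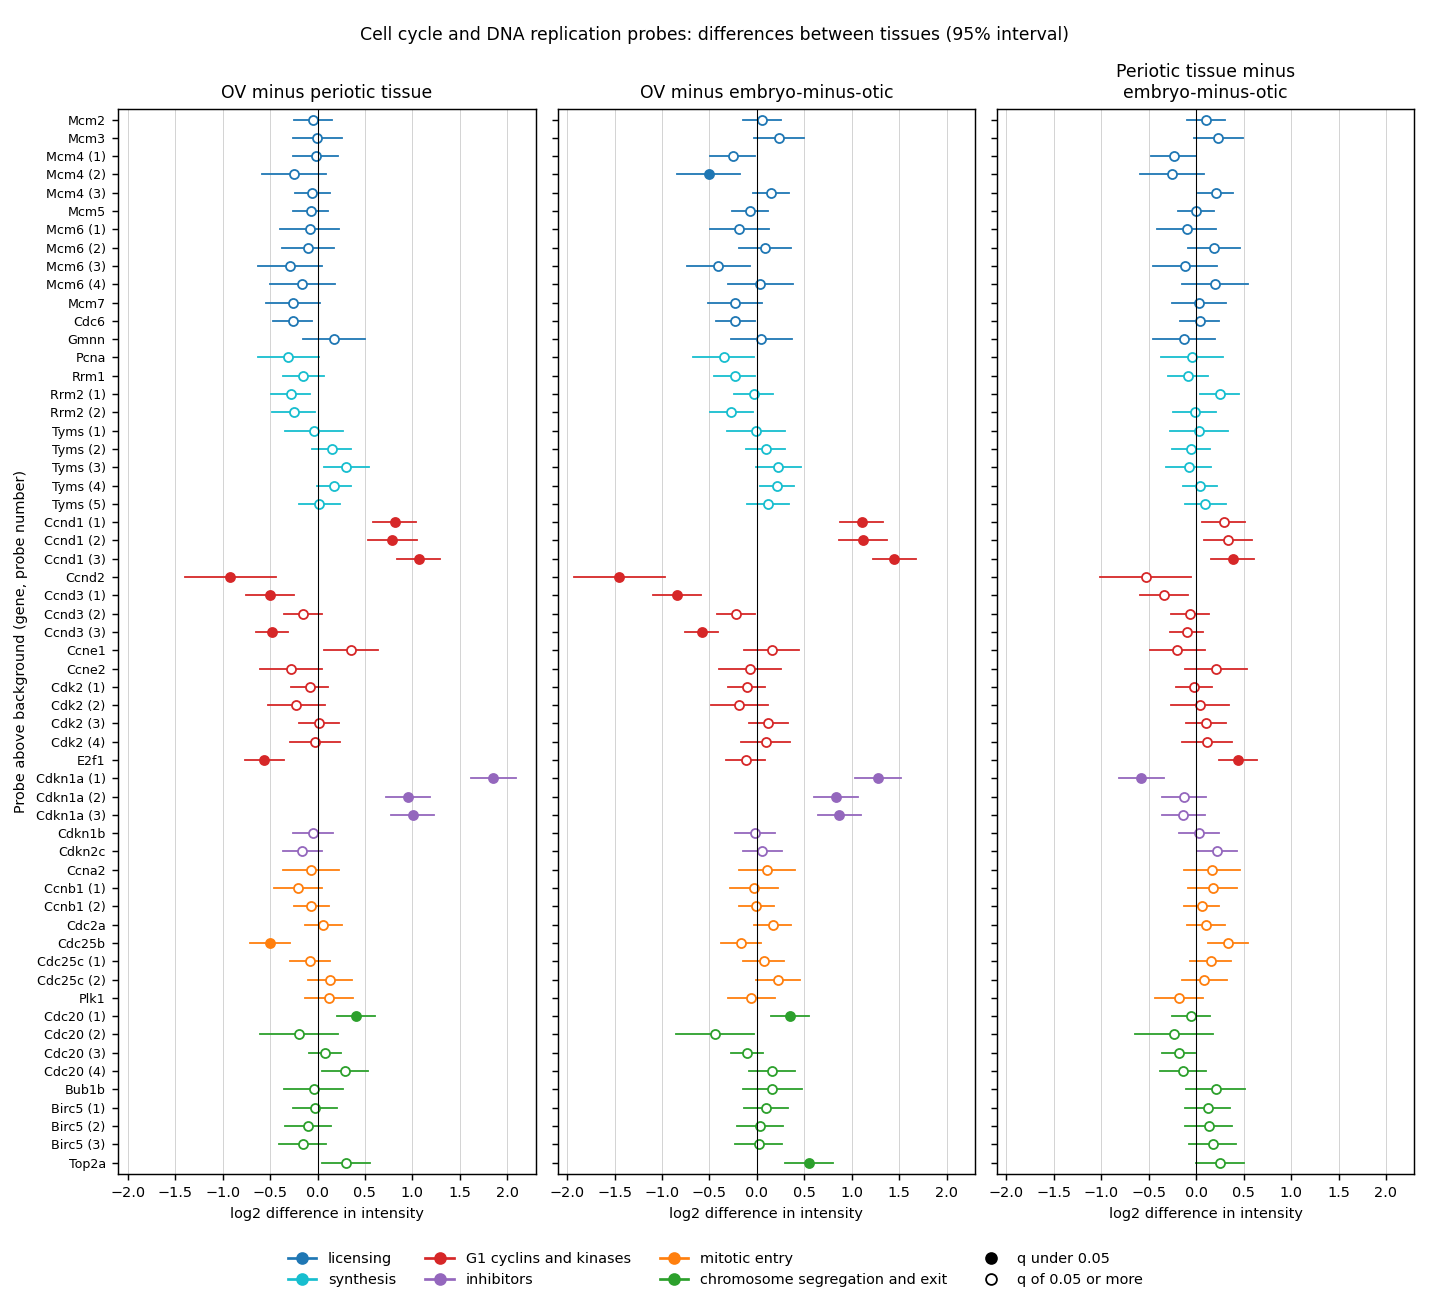
Log2 difference in intensity (x axis) of the 58 measured member probes (rows, coloured by role) in the 3 comparisons of tissues, with 95% intervals. Filled points passed the test at q under 0.05. *Ccnd1* and *Cdkn1a* stand to the right and *Ccnd2* and *Ccnd3* to the left in both OV panels, while most other probes lie within 0.5 of 0.

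The genes that load the replicative helicase onto origins showed small differences, of which 1 was called. The MCM proteins form this helicase, *Cdc6* loads it and geminin (*Gmnn*) prevents reloading. None of their 13 measured probes was called in OV against periotic tissue or between the non-otic groups, and 1 probe of *Mcm4* was lower in OV than in embryo-minus-otic. *Mcm5* measured 12.11, 12.30 and 12.27 on the OV arrays, 12.26, 12.31 and 12.33 on the periotic arrays and 12.31, 12.21 and 12.38 on the embryo-minus-otic arrays. *Mcm2* measured 10.54, 10.51 and 10.59 in OV, 10.64, 10.72 and 10.43 in the periotic pools and 10.51, 10.39 and 10.57 in embryo-minus-otic. Arrays of the 3 groups overlapped for both genes. The *Mcm2* interval ran from -0.25 to 0.15 for OV against periotic tissue and from -0.15 to 0.26 for OV against embryo-minus-otic. Those of *Mcm5* ran from -0.26 to 0.11 in both comparisons. In OV against periotic tissue, 12 of the 13 measured licensing probes had a difference below 0. This stands beside 38 of the 58 measured member probes and 6011 of all 11849 measured probes. Several of the licensing probes belong to the same gene, so their signs are not independent. The median of the 13 was -0.08, and the lowest value was -0.29 for a probe of *Mcm6*. *Gmnn*, the exception, had a difference of 0.17 (*q* = 0.65). For the measured *Cdc6* probe (ILMN_2597255), every OV array lay below every array of the other groups. Its differences were -0.26 (*q* = 0.12) against periotic tissue and -0.23 (*q* = 0.18) against embryo-minus-otic. For *Mcm7*, the OV arrays lay below all periotic arrays (-0.26, *q* = 0.33).

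*Mcm4*, a subunit of the same helicase, had 3 probes that did not run alike. Probe 2 (ILMN_2752010) measured 6.51, 6.58 and 6.40 in OV, 6.85, 6.86 and 6.54 in the periotic pools and 6.62, 7.44 and 6.96 in embryo-minus-otic. It was lower in OV than in embryo-minus-otic by the narrowest margin of the members called there (log2 difference = -0.51, SE = 0.16, *q* = 0.0498), and embryo-minus-otic replicate 2 was the highest array. Without that array the difference was -0.29 (*q* = 0.20), and the call was also lost without any one of 6 other arrays, with differences from -0.46 to -0.55. It was further lost with neqc background correction (-0.79, *q* = 0.11), under median normalization (-0.47, *q* = 0.28) and in a fit of only the groups compared (*q* = 0.071). Probe 1 had a difference of -0.25 (*q* = 0.19) and probe 3, which measured between 12.60 and 12.93 on all arrays, one of 0.15 (*q* = 0.38).

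No probe of the DNA synthesis genes was called in any comparison. These are *Pcna*, the sliding clamp of the polymerases, *Rrm1* and *Rrm2*, the subunits of ribonucleotide reductase, and *Tyms*, thymidylate synthase, with 9 measured probes in all. *Pcna*, a common marker of proliferating cells, measured 9.67, 9.78 and 9.29 in OV, 9.73, 9.72 and 10.22 in the periotic pools and 9.73, 10.12 and 9.95 in embryo-minus-otic. Its OV arrays overlapped both other groups. The *Pcna* difference was -0.31 (95% interval -0.63 to 0.02, *q* = 0.30) for OV against periotic tissue and -0.35 (-0.67 to -0.03, *q* = 0.19) for OV against embryo-minus-otic. *Rrm1* measured 10.10, 10.10 and 10.09 in OV, the tightest of its groups, and differed by -0.15 (*q* = 0.51) from periotic tissue and by -0.23 (*q* = 0.18) from embryo-minus-otic. The 2 probes of *Rrm2* differed by -0.28 (*q* = 0.086) and -0.25 (*q* = 0.19) from periotic tissue, and in both the OV arrays lay below all periotic arrays. The 5 probes of *Tyms* differed between -0.04 and 0.30 in the same comparison.

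The genes of mitotic entry were level as well, except *Cdc25b*. *Cdc2a* encodes CDK1, the kinase that drives cells into mitosis with the B-type cyclins. Its measured probe (ILMN_2657844) read 10.44, 10.40 and 10.33 in OV, 10.26, 10.37 and 10.37 in the periotic pools and 10.06, 10.31 and 10.31 in embryo-minus-otic. The OV arrays overlapped those of periotic tissue and lay just above those of embryo-minus-otic. Its differences were 0.06 (95% interval -0.14 to 0.26, *q* = 0.83) against periotic tissue and 0.17 (-0.03 to 0.36, *q* = 0.35) against embryo-minus-otic. The other 2 *Cdc2a* probes were not measured. For *Ccnb1*, which encodes cyclin B1, probe 2 measured between 11.59 and 11.84 on all 9 arrays and probe 1 between 10.89 and 11.49, and all groups overlapped. Their differences were -0.06 and -0.21 against periotic tissue and -0.01 and -0.03 against embryo-minus-otic. *Ccna2*, *Plk1* and both measured probes of *Cdc25c*, which encode cyclin A2, a mitotic kinase and a phosphatase that activates CDK1, differed by at most 0.22 in either OV comparison and were not called.

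Among the genes of chromosome segregation and mitotic exit, *Bub1b*, a kinase of the spindle checkpoint, and *Birc5*, which encodes survivin, were level. *Bub1b* measured 8.83, 8.75 and 8.84 in OV, 9.15, 8.74 and 8.66 in the periotic pools and 8.85, 8.28 and 8.81 in embryo-minus-otic. The 3 probes of *Birc5* differed between -0.15 and -0.02 against periotic tissue and between 0.02 and 0.10 against embryo-minus-otic. Calls in this group were made for *Cdc20* and *Top2a*, described after the D-type cyclins and the inhibitors.

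**Figure D2:**
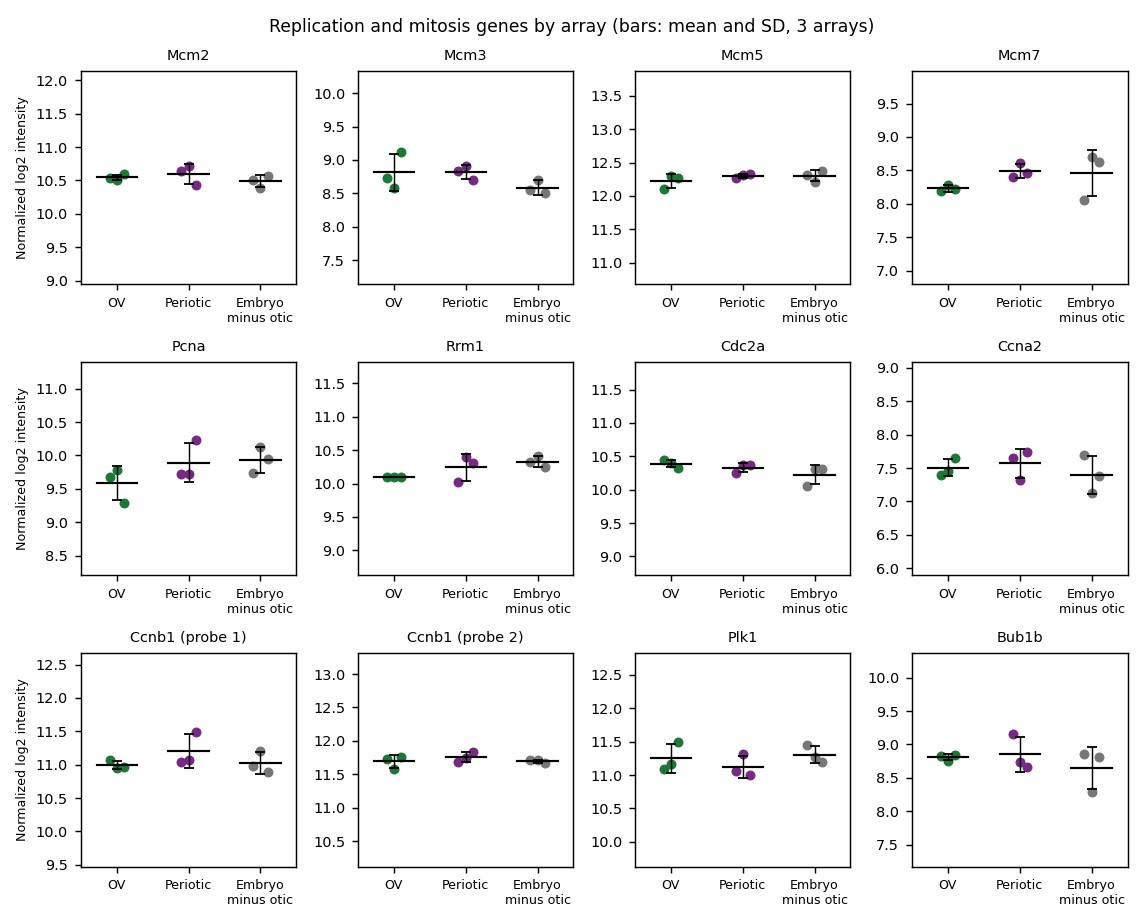
Normalized log2 intensity (y axis) on each of the 9 arrays for 12 replication and mitosis probes without a call in any comparison. Points are arrays, and lines and bars are the mean and SD of 3 arrays. Groups lie close together, as for *Mcm2* at 10.55 in OV, 10.60 in the periotic pools and 10.49 in embryo-minus-otic.

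The D-type cyclins differed among the tissues and not in the same direction. *Ccnd1*, which encodes cyclin D1, was higher in OV than in both other tissues with all 3 probes, whereas *Ccnd2* and *Ccnd3* were lower in OV. *Ccnd1* probe 3 (ILMN_2669793) measured 11.40, 11.39 and 11.45 on the OV arrays, 10.34, 10.40 and 10.31 on the periotic arrays and 10.18, 9.72 and 9.99 on the embryo-minus-otic arrays. Every OV array lay above every array of the other groups. The OV mean was higher than that of periotic tissue with a fold Δ of 2.09 (log2 difference = 1.06, SE = 0.11, *q* = 3.22e-06) and higher than that of embryo-minus-otic with a fold Δ of 2.73 (log2 difference = 1.45, *q* = 1.08e-07). Probe 1 (ILMN_1221503) measured 12.95, 13.20 and 13.24 in OV, 12.20, 12.52 and 12.23 in the periotic pools and 12.03, 12.06 and 11.99 in embryo-minus-otic. Probe 2 (ILMN_2601471) measured 12.67, 12.99 and 13.07 in OV, 12.03, 12.33 and 12.00 in the periotic pools and 11.90, 11.80 and 11.67 in embryo-minus-otic. The OV arrays again lay above all others. Their fold Δ was 1.76 (*q* = 5.65e-05) and 1.73 (*q* = 0.00025) against periotic tissue, and 2.15 (*q* = 2.31e-06) and 2.17 (*q* = 7.0e-06) against embryo-minus-otic. These 6 calls were kept in each of the 16 alternatives run.

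Periotic tissue lay between OV and embryo-minus-otic for all 3 *Ccnd1* probes. The difference between periotic tissue and embryo-minus-otic passed the test with probe 3 alone (log2 difference = 0.38, *q* = 0.0451). Probes 1 and 2 differed by 0.29 (*q* = 0.15) and 0.33 (*q* = 0.15), with no overlap of arrays. The call of probe 3 was lost without any one of 8 arrays, of which embryo-minus-otic replicate 2 left the smallest difference, 0.26 (*q* = 0.17). It was also lost with neqc (*q* = 0.096), without normalization between arrays (0.51, *q* = 0.19) and in a fit of only the groups compared (*q* = 0.090), while median normalization brought a call with probe 2 (0.55, *q* = 0.043).

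*Ccnd2*, which encodes cyclin D2, had the largest drop in OV among the members. It measured 9.82, 10.04 and 9.50 in OV, 10.71, 10.68 and 10.72 in the periotic pools and 10.87, 11.98 and 10.85 in embryo-minus-otic. The groups did not overlap, and embryo-minus-otic replicate 2 stood over 1 unit above the other arrays of its group. *Ccnd2* was lower in OV than in embryo-minus-otic by a log2 difference of -1.45 (SE = 0.22, *q* = 0.00032), and without that array by -1.07, still called. Against periotic tissue the log2 difference was -0.92 (SE = 0.22, *q* = 0.0133). This call was lost without OV replicate 3 (-0.78, *q* = 0.076) and without periotic replicate 1 (-0.91, *q* = 0.053), and also with neqc background correction (-0.95, *q* = 0.069). The difference of -0.53 between periotic tissue and embryo-minus-otic was not called (*q* = 0.24).

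*Ccnd3*, which encodes cyclin D3, was lower in OV with 2 of its 3 probes. Probe 3 (ILMN_3131063) measured 10.99, 10.95 and 10.94 in OV, 11.43, 11.50 and 11.40 in the periotic pools and 11.60, 11.52 and 11.51 in embryo-minus-otic. The SD within each group was at most 0.053, so the step between OV and the other tissues was several times the spread of the arrays. Its log2 difference was -0.48 (*q* = 0.00063) against periotic tissue and -0.58 (*q* = 0.0001) against embryo-minus-otic. Probe 1 (ILMN_1246473) measured 7.15, 7.27 and 7.18 in OV, 7.73, 7.80 and 7.57 in the periotic pools and 7.83, 8.34 and 7.94 in embryo-minus-otic. Its differences were -0.50 (*q* = 0.0103) and -0.84 (*q* = 0.00013), again with OV lowest on every array. The first of these was lost without periotic replicate 2 (-0.45, *q* = 0.056). Probe 2 (ILMN_2661849) was above background on no OV array, 1 periotic array and all 3 embryo-minus-otic arrays. With OV set to no less than the lowest signal above background, its mean in embryo-minus-otic was 1.09-fold that in OV. The difference was not called (log2 difference = -0.22, 95% interval -0.42 to -0.02, *q* = 0.17).

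Median normalization in place of quantile normalization kept these directions but ended the calls of *Ccnd2* and of *Ccnd3* probe 1 in both OV comparisons and that of *Ccnd3* probe 3 against embryo-minus-otic (*q* from 0.051 to 0.19). Without normalization between arrays, the call of *Ccnd3* probe 3 against periotic tissue was lost (-0.53, *q* = 0.084). The E-type cyclins, which act with CDK2 at the start of S phase, were not called. *Ccne1* differed by 0.35 (*q* = 0.14) and *Ccne2* by -0.28 (*q* = 0.37) between OV and periotic tissue, and the 4 probes of *Cdk2* differed between -0.23 and 0.02.

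The largest difference of any member was in *Cdkn1a*, the gene of the inhibitor p21, which was higher in OV than in both other tissues with all 3 measured probes. Probe 1 (ILMN_2634083) measured 8.73, 8.85 and 8.68 in OV, 6.74, 7.02 and 6.94 in the periotic pools and 7.25, 7.66 and 7.52 in embryo-minus-otic. No array of one group reached into another, and the order was OV, embryo-minus-otic, periotic tissue. The fold Δ of OV was 3.62 against periotic tissue (log2 difference = 1.85, SE = 0.11, *q* = 1.1e-08) and 2.42 against embryo-minus-otic (log2 difference = 1.28, SE = 0.11, *q* = 8.9e-07). Periotic tissue was lower than embryo-minus-otic by a log2 difference of -0.58 (*q* = 0.0046), a call that ended under median normalization (-0.44, *q* = 0.25) and without normalization (-0.57, *q* = 0.085).

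Probes 2 and 3 of *Cdkn1a* read close to background outside OV. Probe 2 (ILMN_2846775) measured 7.17, 7.01 and 7.30 in OV, 6.23, 6.16 and 6.21 in the periotic pools and 6.10, 6.38 and 6.50 in embryo-minus-otic, where 2 arrays of each non-otic group were above background. Its log2 difference was 0.96 (*q* = 1.35e-05) against periotic tissue and 0.83 (*q* = 5.77e-05) against embryo-minus-otic. Probe 3 (ILMN_2846776) measured 6.97, 6.92 and 6.88 in OV and was not above background on any periotic array. OV was at least 1.67-fold higher than periotic tissue with this probe (*q* = 6.17e-06), and it was higher than embryo-minus-otic, with 1 array above background, by a log2 difference of 0.87 (*q* = 2.9e-05). The 6 OV calls of *Cdkn1a* were kept in all 16 alternatives. The other inhibitors showed no such difference, but their measured probes also read close to background, in all groups. The lowest value above background on an array lay between 6.14 and 6.24, so a difference in RNA could be missed there. *Cdkn1b* measured 6.53, 6.54 and 6.53 in OV, 6.55, 6.71 and 6.49 in the periotic pools and 6.74, 6.39 and 6.54 in embryo-minus-otic. *Cdkn2c* measured 6.55, 6.35 and 6.52 in OV, 6.68, 6.62 and 6.60 in the periotic pools and 6.42, 6.58 and 6.26 in embryo-minus-otic. Neither was called, with OV differences of -0.05 and -0.16 against periotic tissue and -0.02 and 0.06 against embryo-minus-otic. A further 2 *Cdkn1b* probes and 1 *Cdkn2c* probe were above background on no array.

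**Figure D3:**
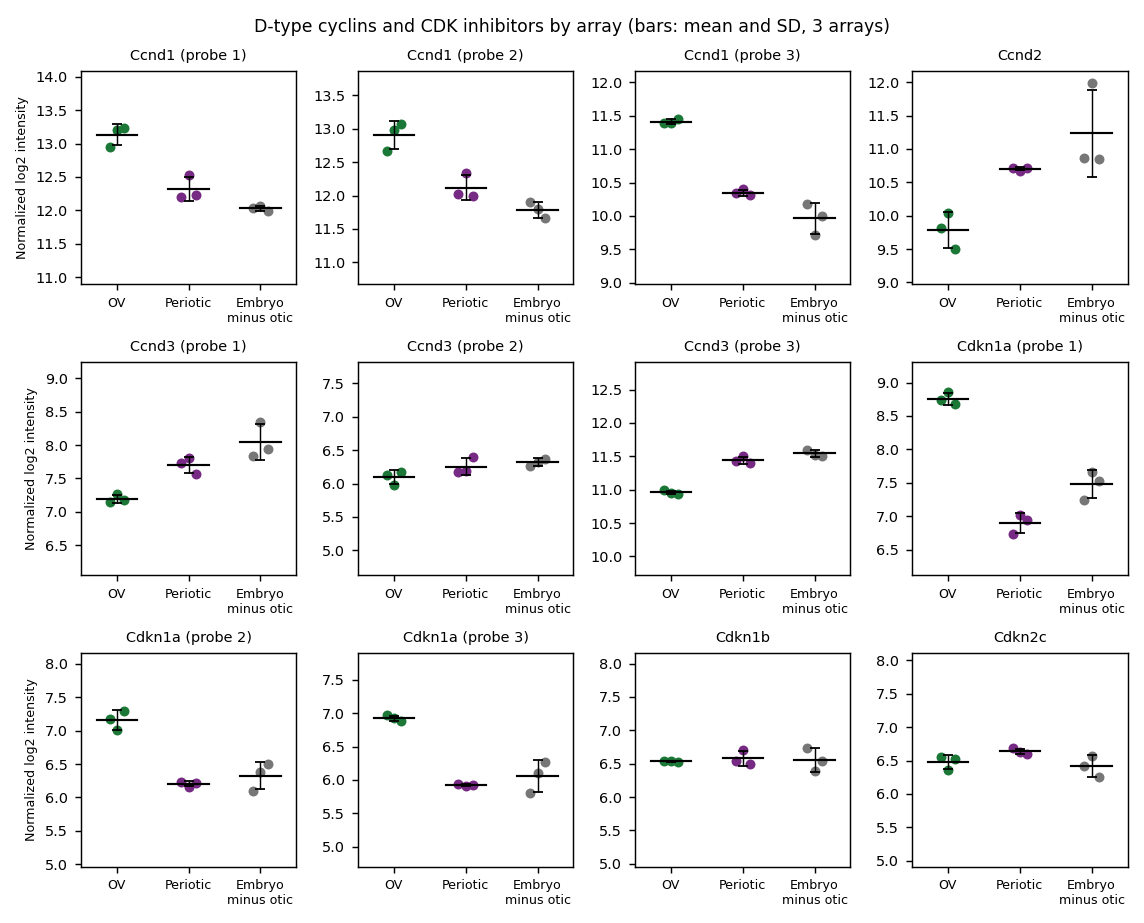
Normalized log2 intensity (y axis) on each array for all measured probes of the D-type cyclins and of the inhibitors. Points are arrays, and lines and bars are the mean and SD of 3 arrays. The OV points lie above all others for *Ccnd1* and *Cdkn1a* and below all others for *Ccnd2* and for *Ccnd3* probes 1 and 3.

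*E2f1* and *Cdc25b* were highest in periotic tissue. *E2f1*, a transcription factor that activates replication genes, measured 9.78, 9.73 and 9.73 in OV, 10.27, 10.44 and 10.21 in the periotic pools and 10.02, 9.74 and 9.84 in embryo-minus-otic. It was lower in OV than in periotic tissue by a log2 difference of -0.56 (SE = 0.095, *q* = 0.00071) and higher in periotic tissue than in embryo-minus-otic by 0.44 (*q* = 0.0094). OV and embryo-minus-otic overlapped, with a difference of -0.12 (*q* = 0.56). The call between the non-otic groups was lost without periotic replicate 2 (0.38, *q* = 0.062) and without normalization between arrays (0.58, *q* = 0.077). *Cdc25b* encodes a phosphatase that starts the activation of CDK1 and is also known from neural progenitors. It measured 6.55, 6.24 and 6.44 in OV, 6.84, 7.03 and 6.87 in the periotic pools and 6.68, 6.55 and 6.51 in embryo-minus-otic. *Cdc25b* was lower in OV than in periotic tissue by -0.50 (SE = 0.099, *q* = 0.0027), a call lost without normalization between arrays (-0.56, *q* = 0.055). The other differences of *Cdc25b*, -0.17 for OV against embryo-minus-otic and 0.33 between the non-otic groups, were not called (*q* = 0.37 and 0.068).

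*Top2a*, the topoisomerase that untangles replicated chromosomes, measured 10.95, 11.02 and 11.47 in OV, 10.89, 10.91 and 10.74 in the periotic pools and 10.68, 10.58 and 10.53 in embryo-minus-otic. The 3 groups did not overlap, with OV highest. OV was higher than embryo-minus-otic by 0.55 (SE = 0.12, *q* = 0.0055), while the differences of 0.30 between OV and periotic tissue (*q* = 0.16) and of 0.25 between the non-otic groups (*q* = 0.32) were not called.

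*Cdc20*, the activator of the complex that ends mitosis, gave a call with 1 of 4 probes. Probe 1 (ILMN_2612206) measured 10.68, 10.90 and 10.86 in OV, 10.39, 10.46 and 10.36 in the periotic pools and 10.56, 10.31 and 10.51 in embryo-minus-otic. It was higher in OV by 0.41 against periotic tissue (*q* = 0.0096) and by 0.35 against embryo-minus-otic (*q* = 0.0244). The first call was lost without OV replicate 2 (0.36, *q* = 0.058), under median normalization (0.34, *q* = 0.17) and without normalization between arrays (0.33, *q* = 0.68). The second was lost without OV replicate 2 (0.30, *q* = 0.11), OV replicate 3 (0.33, *q* = 0.092) or embryo-minus-otic replicate 2 (0.28, *q* = 0.11), and without normalization (0.41, *q* = 0.34). Probes 2, 3 and 4 had differences of -0.20, 0.08 and 0.29 against periotic tissue and of -0.44, -0.11 and 0.16 against embryo-minus-otic, none of them called. The probes of *Cdc20* thus disagreed in sign.

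**Figure D4:**
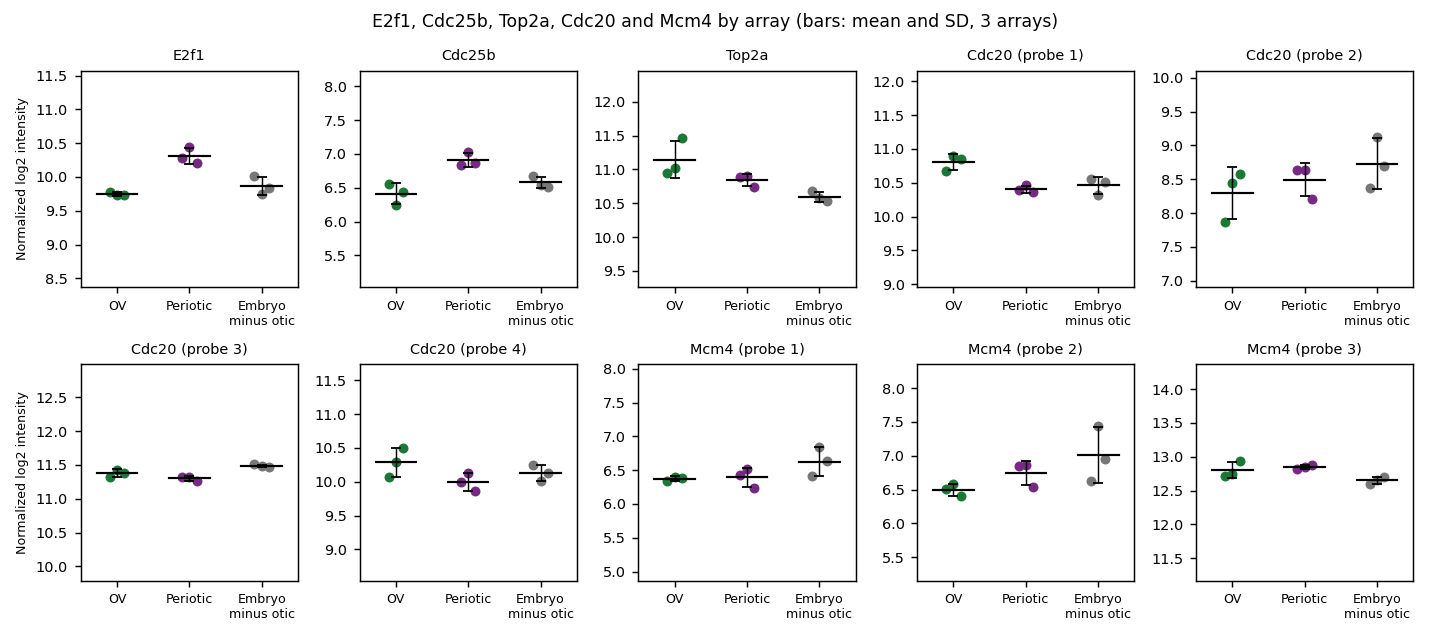
Normalized log2 intensity (y axis) on each array for *E2f1*, *Cdc25b*, *Top2a* and all measured probes of *Cdc20* and *Mcm4*. Points are arrays, and lines and bars are the mean and SD of 3 arrays. *E2f1* and *Cdc25b* are highest in periotic tissue, and the probes of *Cdc20* and of *Mcm4* differ among themselves.

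A wider list of 165 probes for 105 other genes of replication, mitosis and cell cycle control was read from the same fit, and 125 of these probes were measured. Against periotic tissue, 2 were higher and 9 lower in OV, 6.67% of the list beside 10.2% of all probes, and 8.8% of its measured probes beside 20.9% of all measured probes. Against embryo-minus-otic, 4 were higher and 5 lower in OV, 5.45% beside 11.4% and, over measured probes, 7.2% beside 23.2%. Between the non-otic groups, 9 were higher and 2 lower in periotic tissue, 6.67% beside 5.81% and, over measured probes, 8.8% beside 12.1%. The median log2 difference over the measured probes of the list was -0.04, 0.02 and 0.07 in these comparisons. The 45 measured replication probes cover the origin recognition complex, polymerases and clamp loader. In each OV comparison 2 of them were called, 4.44% beside 20.9% and 23.2% of all measured probes. None was called between the non-otic groups, beside 12.1% of all measured probes. *Pold1*, the catalytic subunit of DNA polymerase delta, was lower in OV than in embryo-minus-otic, with 9.99, 10.12 and 10.19 against 10.68, 10.58 and 10.48 (log2 difference = -0.48, *q* = 0.0033). This call was lost under median normalization (-0.30, *q* = 0.30) and without normalization between arrays (-0.43, *q* = 0.26). Of the 51 measured mitosis probes, 4 were higher in OV than in embryo-minus-otic and none was lower. This was 7.84% beside 12.1% of all measured probes that were higher in OV, so the share was below the background of the comparison. *Bub3*, a protein of the spindle checkpoint, measured 8.39, 8.65 and 8.41 in OV and 7.92, 7.72 and 7.97 in embryo-minus-otic (log2 difference = 0.61, *q* = 0.0027). *Cdca5*, which encodes sororin, a protector of sister chromatid cohesion, was higher by 0.47 (*q* = 0.0040), a call lost without normalization (0.49, *q* = 0.14).

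Of the 29 measured probes for cell cycle regulators in the wider list, 1 was higher and 7 were lower in OV than in periotic tissue, 27.6% beside 20.9% of all measured probes. Against embryo-minus-otic, 3 were lower in OV, 10.3% beside 23.2%. Between the non-otic groups, 5 were higher and 1 lower in periotic tissue, 20.7% beside 12.1%, while 14 of the 29 differences were above 0 and 15 below. *Rb1*, the gene of the retinoblastoma protein, had 2 probes, both highest in periotic tissue. Probe 2 (ILMN_2861644) measured 8.77, 8.58 and 8.60 in OV, 9.53, 9.70 and 9.82 in the periotic pools and 9.02, 8.90 and 8.73 in embryo-minus-otic. It was lower in OV than in periotic tissue by -1.03 (*q* = 3.48e-06) and higher in periotic tissue than in embryo-minus-otic by 0.80 (*q* = 0.00011). With probe 1 the same differences were -0.70 (*q* = 7.98e-05) and 0.69 (*q* = 0.00019). *Gadd45g*, a growth arrest gene that is also known from nascent neurons, differed by -0.77 (*q* = 0.0010) and -0.58 (*q* = 0.0187) between OV and periotic tissue and by 0.78 (*q* = 0.0017) and 0.90 (*q* = 0.0011) between the non-otic groups with its 2 probes. The smaller OV difference was lost without OV replicate 1 (-0.50, *q* = 0.087) and without periotic replicate 2 (-0.36, *q* = 0.072), with neqc (-0.65, *q* = 0.067) and under median normalization (-0.63, *q* = 0.077). *E2f2*, another activating E2F factor, was lower in OV with its 2 measured probes, by -0.50 and -0.46 against periotic tissue and by -0.46 with both against embryo-minus-otic (*q* from 0.0078 to 0.0254). With the first probe, the call against embryo-minus-otic was lost without OV replicate 1 (-0.43, *q* = 0.056), under median normalization (-0.30, *q* = 0.52) and without normalization between arrays (-0.44, *q* = 0.26). The other *E2f2* calls were not followed individually through the alternatives.

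The tissues differed in cell types, and markers of these moved with some of the members described above, though not in every comparison. All 12 measured probes of an otic list, among them *Oc90* and *Fbxo2*, were higher in OV than in both other groups, while 1 probe each of *Dlx5* and *Pax2* was above background on no array. The 4 epithelial probes (*Cdh1*, *Cldn6*, *Cldn7* and *Rbm35a*) were higher in OV in both comparisons, as *Ccnd1* and *Cdkn1a* were, with a summed intensity of 8955 to 9614 in OV, 568 to 748 in the periotic pools and 1083 to 1594 in embryo-minus-otic. *Cldn7* was above background on no periotic array. Between the non-otic groups, 3 of the 4 epithelial probes were lower in periotic tissue, as *Cdkn1a* probe 1 was (-0.58). The *Ccnd1* probes went the other way there, by 0.29, 0.33 and 0.38, of which only the last was called. The part of epithelial content in the *Ccnd1* and *Cdkn1a* differences was not tested.

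Markers of red blood cells were lower in OV than in both other tissues, as were *Ccnd2*, *Ccnd3* and *E2f2*. Of 11 erythroid probes, 9 were lower in OV in both comparisons, and the 2 of *Gata1* were above background on no array. Their summed intensity was 16625 to 40763 in OV, 64390 to 74938 in the periotic pools and 85225 to 92195 in embryo-minus-otic, the same order of groups as for *Ccnd2* and *Ccnd3*. For *E2f2* the OV differences were about alike in both comparisons. Of 12 mesenchyme probes, 3 were lower in OV than in periotic tissue and 11 lower than in embryo-minus-otic, with a summed intensity of 1803 to 1990 in OV, 2043 to 2467 in the periotic pools and 3628 to 4412 in embryo-minus-otic. *Col1a1* was above background on no OV array. Of 7 endothelial probes, 2 were lower in OV than in periotic tissue and 3 lower than in embryo-minus-otic. Heart muscle and liver markers were lower in OV and in periotic tissue than in embryo-minus-otic. Lower in OV were 8 of 9 and 4 of 8 probes, and lower in periotic tissue 8 of 9 and 3 of 8. Only 7 heart muscle and 3 liver probes were measured. All of these were called lower in both comparisons, and the remaining calls are of probes that were not measured. The part of these cell types in the differences of the members was not tested.

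By summed intensity, neural markers were highest in periotic tissue, where *E2f1*, *Cdc25b*, *Rb1* and *Gadd45g* were highest too. Of 12 probes of hindbrain and neural tube genes, 8 were lower in OV than in periotic tissue and 6 were higher in periotic tissue than in embryo-minus-otic. The probes of *Olig2*, *Pax6* and *Sox1* were above background on no array. In all, 8 of the 12 were measured, and 1 of these was not called in OV against periotic tissue. The summed intensity of the 12 was 1452 to 1601 in OV, 5720 to 6486 in the periotic pools and 2201 to 2609 in embryo-minus-otic. Of 18 probes of differentiating neurons, 9 were lower in OV than in periotic tissue and 8 were higher in periotic tissue than in embryo-minus-otic, with a summed intensity of 1677 to 2299, 3883 to 5204 and 2858 to 3303 in OV, periotic tissue and embryo-minus-otic. *Tubb3*, *Snap25* and *Nefl* were above background on no array. *Isl1*, which was measured, was called in no comparison and differed by -0.29 between the non-otic groups. In OV against embryo-minus-otic, 5 of the 12 and 6 of the 18 probes were lower, whereas *E2f1* (-0.12) and *Cdc25b* (-0.17) were not called. *Cdc25b* was not called between the non-otic groups either. The part of neural tissue in the differences of *E2f1*, *Cdc25b*, *Rb1* and *Gadd45g* was not tested.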

How the data were processed

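Biotin-labelled cRNA of 9 RNA pools was hybridized to MouseRef-8 v2.0 arrays, 3 per group. For each probe the authors deposited an average bead signal, an intensity not normalized between arrays. They also deposited a detection p-value, which changes in steps of 1 in 798. Whether a background was subtracted, and the slide of each array, are not given in the sources used here. The methods name 3 litters but not the litter of each pool, so p-values measure the spread between these pools. Signals were floored at 1, log2 transformed, quantile normalized and fitted with limma 3.58.1 in R 4.3.3, after a test on simulated data. Arrays were grouped by the tissue in their labels. Where no array of a group was above background, a fold is a lower bound against the lowest signal above background. Probes were not averaged by gene, are numbered by identifier and were not set against each other in level. Named were all called members, every measured probe of the D-type cyclins and inhibitors, *Pcna*, *Cdc2a* and up to 4 probes of the wider list per comparison. Other members given with values were chosen after their values were seen. Members, lists and motifs were chosen with earlier results of these data known. Alternatives were neqc background correction (offset 16), median or no normalization, only measured probes and array weights. Others were the replicate number as a block, a fit of the compared groups alone and each array left out. The other detection threshold of 0.05 served only to recount the measured member probes, and calls were not refitted with it.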

Additional observations from a re-analysis of the deposited data

How the results depend on the processing

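With 3 arrays per group and many probes near background, small differences could not be resolved, and 59 member probes rather than 58 were measured at a detection p under 0.05. The OV calls of *Ccnd1* and *Cdkn1a* were kept in each of the 16 alternatives. Over the named differences, a call was lost 26 times with an array left out and 27 times under other alternatives, 1 was gained, and a sign turned 8 times in either case, always for a difference without a call. The cause of these changes was not tested. Without normalization between arrays, *Cdc2a* in OV against periotic tissue was -0.0272, *Cdkn2c* in OV against embryo-minus-otic was -0.0726, and *Cdkn1b* and *Pcna* between the non-otic groups were -0.0254 and 0.088. Under median normalization, *Cdc2a* in OV against periotic tissue was -0.0229, *Cdkn1b* in OV against embryo-minus-otic was 0.0317, and *Ccnd3* probe 3 and *Pcna* between the non-otic groups were 0.0925 and 0.2204.

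Median normalization also moved the median of all measured probes to 0.12 for OV against embryo-minus-otic and 0.18 between the non-otic groups. It changed the split of higher and lower calls over all probes from 1513 and 1417 to 1472 and 670 in the former and from 736 and 757 to 812 and 315 in the latter. Without normalization these splits were 588 and 795, and 325 and 371. Under median normalization, member probes lower in OV numbered 3 against periotic tissue and 0 against embryo-minus-otic, and 4 were higher and 0 lower in periotic tissue than in embryo-minus-otic. Probes of the wider list were then 0 higher and 4 lower, 7 higher and 0 lower, and 17 higher and 0 lower in the same order of comparisons. Without normalization, 3 member probes were lower in OV than in periotic tissue, and 0 were called in either direction between the non-otic groups. Probes of the wider list were then 0 higher and 5 lower, 1 higher and 0 lower, and 4 higher and 0 lower. Member probes higher in periotic tissue than in embryo-minus-otic numbered 1 with neqc and 1 in a fit of only the groups compared. That fit gave 14 lower probes of the wider list in OV against periotic tissue, 3 against embryo-minus-otic and 1 between the non-otic groups. The last count was also 1 with only measured probes and 1 with array weights.

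With single arrays left out, member probes higher in periotic tissue than in embryo-minus-otic ranged from 0 (without periotic replicate 2) to 2. In the wider list, probes higher in OV ranged from 1 to 2 against periotic tissue and from 3 to 7 against embryo-minus-otic, those lower in OV than in embryo-minus-otic from 1 to 6, and those lower in periotic tissue from 0 to 2. *Cdkn1b* ranged from -0.0892 to 0.0164, from -0.104 to 0.0717 and from -0.0582 to 0.1196 in the order of comparisons, *Cdkn2c* in OV against embryo-minus-otic from -0.0219 to 0.1348, and *Pcna* between the non-otic groups from -0.2095 to 0.0506.

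Same-numbered arrays of different groups correlated in their deviations from the group means with r from 0.0108 to 0.2344, over 0.1 in 5 of 9 pairs. Differently numbered arrays had r from -0.1917 to 0.0637, over 0.1 in 0 of 18 pairs. The main fit did not take the numbers as pairs, so any effect shared by same-numbered arrays stayed in its spread. Of 18 matches of an array to another group, 15 were best with its own number. With the replicate number as a block, member calls were 7 higher and 5 lower, 8 higher and 5 lower, and 2 higher and 1 lower in the order of comparisons. The wider list gave 2 and 9, 5 and 5, and 12 and 1 with the block.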

Other observations

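Probes under older symbols were found for 2 of the 5 member symbols without a probe, by a match to a single RefSeq synonym made after the values of the other members were known. *Ris2*, an older name of *Cdt1*, which loads the replicative helicase with *Cdc6*, measured 10.76, 10.90 and 11.01 in OV, 10.92, 10.59 and 10.80 in the periotic pools and 11.06, 11.05 and 10.90 in embryo-minus-otic. *Stk6*, an older name of *Aurka*, the kinase of the spindle poles, measured 9.92, 10.10 and 9.98 in OV, 10.11, 10.19 and 10.32 in the periotic pools and 10.12, 10.09 and 10.40 in embryo-minus-otic. Neither was called. The log2 differences of OV were 0.12 (*q* = 0.65) and -0.20 (*q* = 0.31) against periotic tissue and -0.12 (*q* = 0.62) and -0.20 (*q* = 0.29) against embryo-minus-otic.

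Embryo-minus-otic replicate 2 was the highest array of its group for *Ccnd2* (11.98), for *Ccnd3* probe 1 (8.34), for *Mcm4* probe 2 (7.44) and for both measured probes of *E2f2* (8.67 and 8.37). It was not for *Ccnd3* probe 3, highest on replicate 1 (11.60), or for *Ccnd3* probe 2, highest on replicate 3 (6.37). These probes were picked, and the share over all probes was not counted.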
